A study of Mus musculus with 6 samples.

Results

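The immediate-early AP-1 and Egr genes are Fos, Fosb, Jun, Junb, Jund, Egr1, Ier2, Dusp1, Atf3 and Nr4a1, taken by gene symbol and not by their values. All 10 were found among the 55573 genes of the count table, once each, and all 10 were among the 20646 genes tested. They were measured by RNA sequencing of LSK cells, which lack lineage markers and carry Sca-1 and c-Kit on their surface, the bone marrow fraction that holds stem cells and multipotent progenitors, from C57BL/6J mice aged 3 months. A group of 3 libraries came from wild-type mice (genotype Etv6+/+) and a group of 3 from mice with 1 mutant copy of Etv6, written Etv6+/- in the genotype field and R355X/+ in the series text. Etv6 encodes an ETS-family repressor, and the series title asks about its control of inflammatory genes. For every library, cells were first pulled down by c-Kit with magnetic beads and then sorted. The sources used here do not give the time from marrow to lysis, the sex of the mice or any pooling of animals. Nothing says that replicates are separate animals, and p-values then reflect the spread between these 6 libraries, which may be technical.

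Immediate-early genes are transcribed within minutes of a growth factor, cytokine or stress signal, without new protein synthesis, by factors already bound to their promoters, such as SRF with its ternary complex partners and CREB. Fos and Jun family proteins pair to form AP-1, Egr1 is a zinc-finger factor, and Dusp1 is a phosphatase that shuts off the MAP kinases that started the response. Many of their transcripts carry AU-rich elements and decay quickly. In blood progenitors and other tissues these genes are also known to rise while cells are dissociated, stained and sorted, so the level in each library was read before any comparison of genotypes.

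The promoters of 8 of the 10 genes matched the RefSeq table (GRCm38.p6), and 5 are shown because they hold, or in the case of Jun lack, the short motif that most of the group shares. Each line gives the 250 bases before the start site, 5′ to 3′ along the gene, and capitals mark TGACG on either strand, the core of the cyclic AMP response element to which CREB and ATF factors bind.
Fos: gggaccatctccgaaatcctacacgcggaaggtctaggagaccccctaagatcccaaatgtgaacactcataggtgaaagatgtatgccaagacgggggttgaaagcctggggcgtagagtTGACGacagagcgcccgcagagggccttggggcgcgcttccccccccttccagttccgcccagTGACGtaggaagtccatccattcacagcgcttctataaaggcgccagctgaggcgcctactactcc
Fosb: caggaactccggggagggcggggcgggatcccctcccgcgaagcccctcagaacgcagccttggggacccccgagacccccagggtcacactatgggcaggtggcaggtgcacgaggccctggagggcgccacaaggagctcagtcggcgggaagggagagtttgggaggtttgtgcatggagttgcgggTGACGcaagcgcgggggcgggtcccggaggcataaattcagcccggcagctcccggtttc
Nr4a1: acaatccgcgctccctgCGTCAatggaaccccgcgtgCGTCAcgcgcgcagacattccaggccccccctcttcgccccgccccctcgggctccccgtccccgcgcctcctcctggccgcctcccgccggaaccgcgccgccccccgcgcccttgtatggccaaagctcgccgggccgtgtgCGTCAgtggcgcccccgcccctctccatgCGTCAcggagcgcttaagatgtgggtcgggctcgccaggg
Dusp1: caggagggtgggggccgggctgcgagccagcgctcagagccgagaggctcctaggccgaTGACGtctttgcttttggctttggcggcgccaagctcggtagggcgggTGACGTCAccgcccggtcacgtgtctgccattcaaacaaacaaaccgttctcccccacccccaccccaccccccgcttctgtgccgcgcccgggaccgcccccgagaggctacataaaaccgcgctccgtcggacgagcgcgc
Jun: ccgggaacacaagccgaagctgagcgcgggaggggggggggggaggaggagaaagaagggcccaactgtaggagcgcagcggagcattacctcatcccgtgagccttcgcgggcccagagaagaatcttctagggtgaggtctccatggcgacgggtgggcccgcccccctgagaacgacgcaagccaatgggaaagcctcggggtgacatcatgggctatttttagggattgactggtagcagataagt
The windows are chr12:85473640-85473889 (plus strand), chr7:19310046-19310295 (minus strand), chr15:101266596-101266845 (plus strand), chr17:26508473-26508722 (minus strand) and chr4:95052223-95052472 (minus strand). TGACG or its complement stood in 6 of the 8 promoters (Fos, Fosb, Junb, Dusp1, Atf3 and Nr4a1), against 17.8% of all 32851 promoter windows of this length. In Fos the matches began 129 and 66 bases before the start, in Fosb 60, in Junb 106 and in Atf3 7. Nr4a1 held 4 matches, at 233, 213, 69 and 40 bases. Dusp1 held the full palindrome TGACGTCA at 143 bases, which is itself a TGACG on each strand, and 1 further TGACG at 191 bases; the palindrome stood in 1 of 8 member windows and in 1.55% of all windows. GGGCGG, the core of SP-factor sites, stood in 6 of 8, against 32.7% of all windows, and GCGGGGGCG, bound by EGR proteins, in Fosb and Nr4a1, against 2.57%. TATAAA was present in Fos at 33 bases before the start, and in 12.4% of all windows. The CArG box of SRF, the AP-1 motif TGANTCA and the ETS motif CCGGAAG were found in 0 of the 8 windows, and in 1.47%, 6.75% and 6.91% of all windows. Egr1 and Ier2 had no window, and sites farther than 250 bases from the start were not searched. Only exact matches to these motifs were counted, and related sequences were not. The Jun window holds tgacatca, which matches neither TGACG nor TGANTCA. The Fos window holds cggaag and aggaag, which the ETS motif CCGGAAG does not match. A motif missing here may therefore still be present at these genes. All motifs were searched on both strands, and positions give the first base of a match along the gene. The Jund window lies before a RefSeq start that is upstream of the gene start in GENCODE M21. The Nr4a1, Dusp1 and Atf3 windows lie inside the GENCODE M21 gene spans, before RefSeq starts that are downstream of those gene starts.

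The transcripts are compact. Jun, Junb, Jund and Ier2 have a single exon in the principal GENCODE M21 transcript, 4 of 10 members against 3.21% of 13634 tested coding genes, and the members' median is 3 exons against 9. The pentamer ATTTA, the core of AU-rich elements, occurs in the 3′ UTR of 9 of the 10, against 65.8% of the tested coding genes, and Ier2 has none. It is densest in Dusp1 at 5.80 per kb of 3′ UTR, Nr4a1 at 5.52 and Fos at 4.91, against a median of 1.23 per kb over the tested coding genes. Fosb had 0.466 per kb, the lowest density among the members that carry it.

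Across the study, the libraries held from 45.2 to 92.2 M expected counts, the largest total in mutant replicate 1. Levels are given as CPM, which are counts per 1000000 counts of the TMM-scaled library size. Etv6 measured 400 to 454 CPM across the wild-type libraries and 305 to 386 CPM in the mutant libraries. The sorting genes Kit and Ly6a were present in every library, at 351 to 451 and 71.7 to 93.5 CPM. Marker lists of other cells were detected too, as sums of CPM over 10 neutrophil and monocyte genes (5565 to 8314 in wild type, 4300 to 6014 in mutant), 7 B cell genes (1403 to 2227 and 2285 to 2665), 7 erythroid genes (104 to 231 and 151 to 305), 7 macrophage genes (66.7 to 77.8 and 75.0 to 109), 6 mast cell and basophil genes (93.9 to 98.3 and 107 to 118) and 6 T and natural killer genes (94.3 to 125 and 111 to 145). None of these marker genes was under 3 counts in all libraries. The lists include genes such as Mpo, Elane and Gata2, which LSK cells may transcribe themselves. The sums therefore do not tell other cells in the sort from transcription in LSK cells.

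None of the 10 genes differed between genotypes past the threshold of edgeR, DESeq2 or limma-voom. The range of log2 CPM among the 3 wild-type libraries was larger than the size of the log2 fold change for 9 of the 10 genes, Ier2 being the exception. The range among the 3 mutant libraries was larger for all 10. A range of 3 values tends to exceed a difference between group means by noise alone. The share over all genes was not computed, so these counts do not set the members apart. In edgeR's quasi-likelihood test 0 of the 10 passed an adjusted p of 0.05 (Benjamini-Hochberg over all genes), where 0.266% of all tested genes passed, and 0 of 10 had an unadjusted p under 0.05, against 10.6% of all genes. DESeq2 and limma-voom also called 0, against 1.68% and 0.199% of all genes they tested. DESeq2 gave Atf3 no adjusted p, so Atf3 was not judged at its threshold. In mutant against wild type, 4 members had a log2 fold change above 0 and 6 below. Their median was -0.061, and the median over all tested genes was 0.0019. Groups did not overlap for 1 of 10 members, Ier2, against 16.3% of all genes. In these bulk samples fewer cells of a type and less RNA per cell cannot be told apart.

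**Figure D1:**
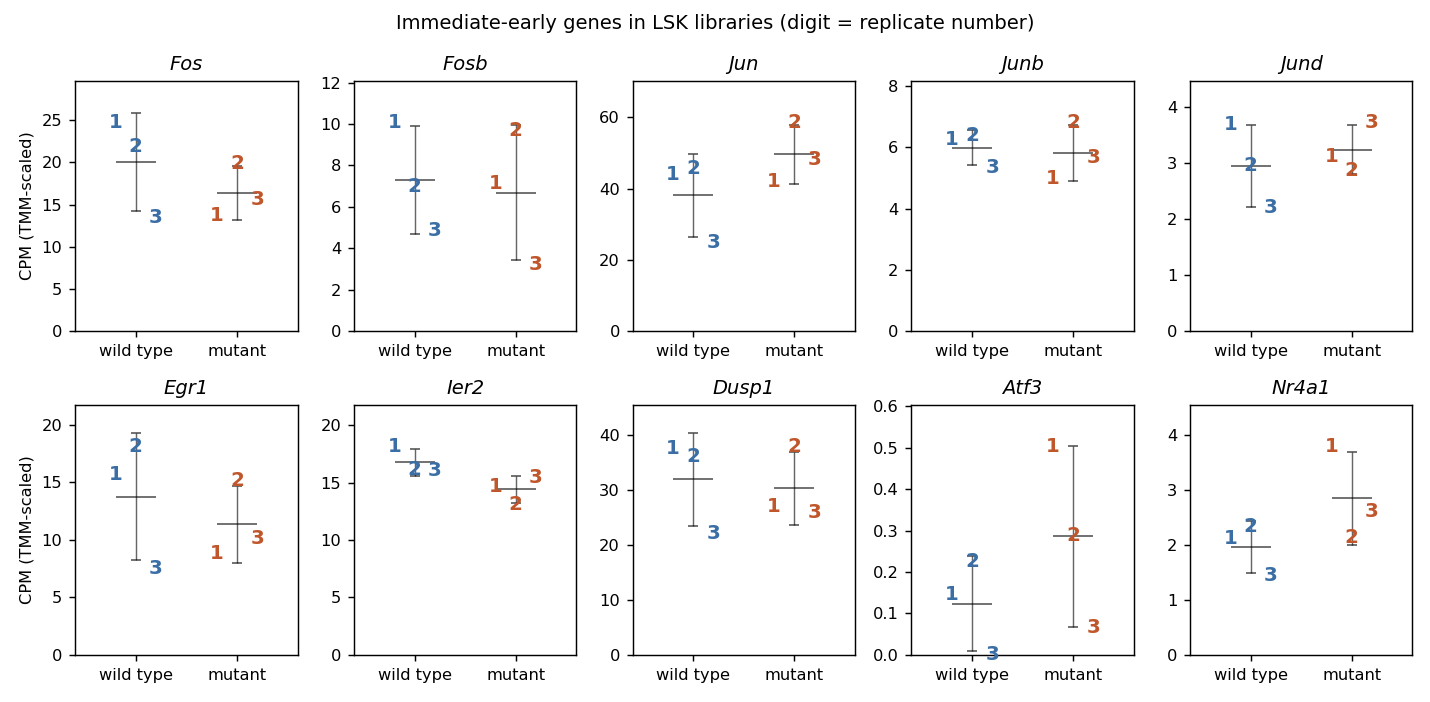
CPM of the 10 genes in each library (vertical axes from 0, a separate scale for each gene), wild type in blue and Etv6 R355X/+ in orange, digits giving the replicate number and bars the mean ± SD (n = 3). Wild-type replicate 3 is the lowest wild-type library in all 10 panels, and the genotypes overlap in every panel other than Ier2.

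**Figure D2:**
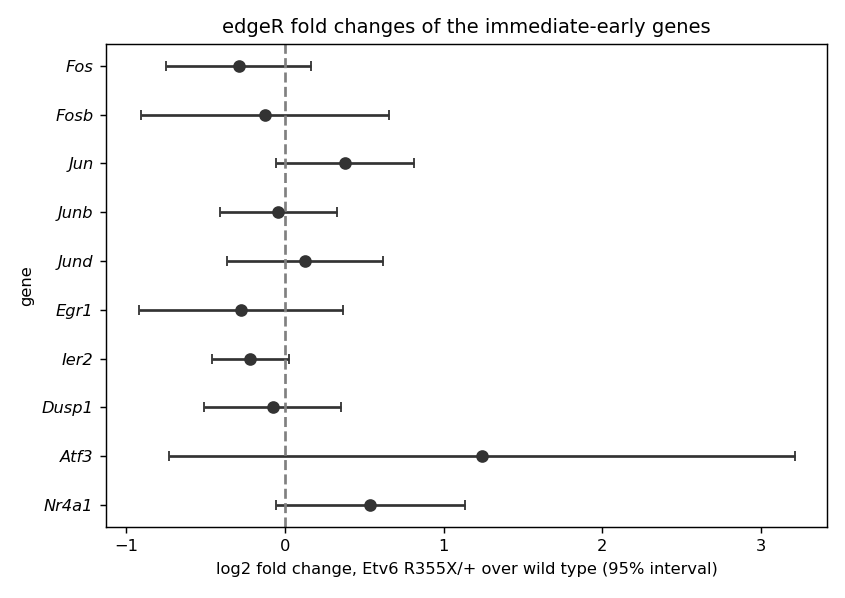
Log2 fold change of mutant over wild type for the 10 genes from edgeR, with 95% intervals as bars. All 10 intervals include 0, and the widest is that of Atf3, from -0.73 to 3.21.

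Among the Fos proteins, which dimerise with Jun proteins, Fos lies on chromosome 12 from 85473890 to 85477273 (GRCm38, plus strand, ENSMUSG00000021250.13). It measured 24.7, 21.9 and 13.5 CPM in wild-type replicates 1 to 3 and 13.7, 19.9 and 15.6 CPM in mutant replicates 1 to 3. Wild-type replicates 1 and 2 lay above all mutant libraries, and replicate 3 below all of them. The log2 fold change was -0.29 (SE 0.21, 95% interval -0.75 to 0.16, edgeR adjusted p = 0.663). Leaving out 1 library moved it from -0.51 (without wild-type replicate 3, edgeR unadjusted p = 0.00874, adjusted p = 0.324) to -0.11 (without wild-type replicate 1, unadjusted p = 0.623, adjusted p = 0.924). Fosb, on chromosome 7 from 19302696 to 19310051 (minus strand, ENSMUSG00000003545.3), encodes a Fos relative with its own role in sustained responses. It measured 10.1, 6.96 and 4.88 CPM across the wild-type libraries and 7.15, 9.71 and 3.21 CPM in the mutant. The replicates numbered 3 were the lowest of each genotype, and the genotypes overlapped, with wild-type replicate 1 the highest library of all and mutant replicate 3 the lowest (log2 fold change -0.13, SE 0.35, 95% interval -0.91 to 0.66, edgeR adjusted p = 0.941).

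The Jun genes encode the other side of the AP-1 dimer. Jun, on chromosome 4 from 95049034 to 95052222 (minus strand, ENSMUSG00000052684.4), measured 43.8, 45.6 and 24.8 CPM across the wild-type libraries and 42.0, 58.5 and 48.3 CPM in the mutant. Wild-type replicate 3 stood far below every other library, mutant replicates 2 and 3 were above all wild-type libraries, and mutant replicate 1 was among the wild-type values. The log2 fold change was 0.38 (SE 0.20, 95% interval -0.057 to 0.82, edgeR adjusted p = 0.544), and it ran from 0.15 without wild-type replicate 3 (edgeR adjusted p = 0.721) to 0.53 without wild-type replicate 2 (unadjusted p = 0.0332, adjusted p = 0.627). Junb, on chromosome 8 from 84974484 to 84978718 (minus strand, ENSMUSG00000052837.6) and often a milder activator than Jun, measured 6.25, 6.37 and 5.33 CPM across the wild-type libraries and 4.98, 6.80 and 5.67 CPM in the mutant. Its annotated span overlaps the highly expressed peroxiredoxin gene Prdx2 on the opposite strand (4272 to 10808 expected counts), so with unstranded counts its level is uncertain. The groups overlapped, with a log2 fold change of -0.044 (SE 0.17, 95% interval -0.41 to 0.33, edgeR adjusted p = 0.959). Jund, on chromosome 8 from 70698949 to 70700616 (plus strand, ENSMUSG00000071076.6), the member of the family with the steadiest expression in most tissues, measured 3.68, 2.96 and 2.22 CPM across the wild-type libraries and 3.11, 2.87 and 3.72 CPM in the mutant. These groups overlapped too (log2 fold change 0.13, SE 0.22, 95% interval -0.36 to 0.62, edgeR adjusted p = 0.887).

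Atf3, on chromosome 1 from 191170296 to 191218039 (minus strand, ENSMUSG00000026628.13), encodes a stress-induced ATF factor that pairs with Jun proteins. It had 9, 11 and 0 expected counts in wild-type replicates 1 to 3 and 44, 15 and 3 in mutant replicates 1 to 3. The 0 in wild-type replicate 3 allows up to 0.0616 CPM, for counting error alone, and mutant replicate 1, the deepest library, reached 0.503 CPM. At this depth the log2 fold change of 1.24 had an SE of 0.89 and a 95% interval from -0.73 to 3.21 (edgeR adjusted p = 0.669), so a difference was not detectable.

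Egr1, on chromosome 18 from 34859823 to 34864984 (plus strand, ENSMUSG00000038418.7), encodes a zinc-finger factor known to restrain proliferation and migration of mouse stem cells. It measured 15.6, 18.1 and 7.51 CPM across the wild-type libraries and 8.82, 15.1 and 10.1 CPM in the mutant. Wild-type replicates 1 and 2 were the highest of the 6 libraries and replicate 3 the lowest, so the wild-type values enclosed those of the mutant. The log2 fold change was -0.28 (SE 0.29, 95% interval -0.92 to 0.36, edgeR adjusted p = 0.787). It ran from -0.57 without wild-type replicate 3 (edgeR unadjusted p = 0.0210, adjusted p = 0.409) to -0.032 without wild-type replicate 2 (unadjusted p = 0.917, adjusted p = 0.997). Nr4a1, on chromosome 15 from 101254269 to 101274795 (plus strand, ENSMUSG00000023034.7), encodes the orphan nuclear receptor Nur77. It measured 2.12, 2.33 and 1.44 CPM across the wild-type libraries and 3.79, 2.13 and 2.61 CPM in the mutant. Mutant replicates 1 and 3 lay above all wild-type libraries and mutant replicate 2 between them (log2 fold change 0.54, SE 0.27, 95% interval -0.060 to 1.14, edgeR adjusted p = 0.525). The log2 fold change ran from 0.27 without mutant replicate 1 (edgeR adjusted p = 0.862) to 0.71 without mutant replicate 2 (unadjusted p = 0.0324, adjusted p = 0.512).

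Dusp1, on chromosome 17 from 26505590 to 26562128 (minus strand, ENSMUSG00000024190.7), removes phosphate from p38, JNK and ERK kinases. It measured 37.6, 36.2 and 22.2 CPM across the wild-type libraries and 27.1, 38.0 and 26.0 CPM in the mutant. Wild-type replicate 3 was again the lowest of all libraries, and the groups overlapped (log2 fold change -0.077, SE 0.19, 95% interval -0.51 to 0.35, edgeR adjusted p = 0.932). Its annotated span also covers Ergic1 on the opposite strand (1700 to 4722 expected counts), whose reads could be shared. Ier2, on chromosome 8 from 84661331 to 84662852 (minus strand, ENSMUSG00000053560.5), encodes a small nuclear protein of the early response. It measured 18.2, 16.1 and 16.1 CPM across the wild-type libraries and 14.7, 13.1 and 15.5 CPM in the mutant. All mutant values were below all wild-type values, by a narrow margin between wild-type replicate 3 and mutant replicate 3. The log2 fold change of -0.22 (SE 0.11, 95% interval -0.46 to 0.024) did not pass edgeR's test (unadjusted p = 0.0725, adjusted p = 0.525), and the exact two-sided permutation p was 0.1, the smallest that 3 against 3 libraries can give.

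Ordered by level per length, Jun led the group at a mean of 13.7 CPM per kb of merged exon, followed by Ier2 at 10.3, Dusp1 at 9.41 and Fos at 7.74. Egr1 at 2.80, Junb at 2.56, Jund at 1.85 and Fosb at 1.12 CPM per kb came next, and Nr4a1 at 0.685 and Atf3 at 0.0952 CPM per kb were last. The ranges over the 6 libraries overlapped between neighbours in this order, other than at 2 places. Fos, whose lowest library had 5.75 CPM per kb, was separated from Egr1, whose highest had 4.04. Nr4a1 (lowest 0.409) was likewise separated from Atf3 (highest 0.234).

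Most members were low together in a single wild-type library. Wild-type replicate 3 was the lowest wild-type library for 10 of 10 members, against 36.1% of all tested genes. It was the lowest of all 6 libraries for 7 of 10, against 18.4%. For Ier2 the margin was narrow (16.071 against 16.135 CPM in wild-type replicate 2), and every mutant library was lower still. Summed over the 10 genes, wild-type replicate 3 held 97.9 CPM, against 162 and 157 CPM in wild-type replicates 1 and 2. Mutant replicates 1 to 3 held 126, 166 and 131 CPM. In the mutant, replicate 2 was the highest for 6 of 10 members (Fos, Fosb, Jun, Junb, Egr1 and Dusp1), against 26.9% of all tested genes. Mutant replicate 3 was the lowest mutant library for 3 of 10, against 35.1%. The members are not independent of each other, since they are known to respond to shared signals.

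**Figure D3:**
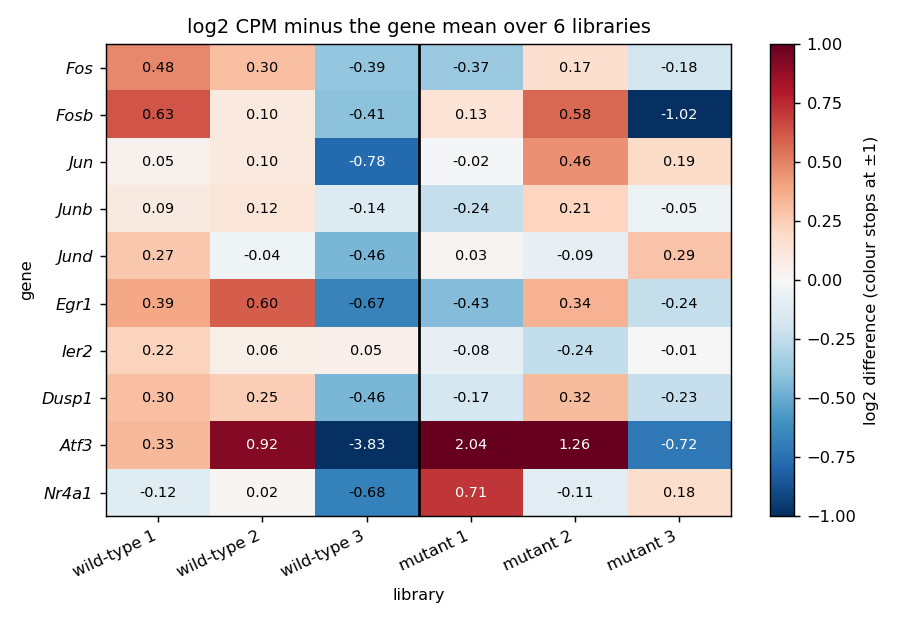
Log2 CPM of each gene (rows) in each library (columns) minus that gene's mean over the 6 libraries, with the value printed in each cell and the colour stopping at 1 either way. The wild-type 3 column is below the gene mean in 9 of 10 rows, Ier2 being the exception.

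Fos, Fosb, Jun, Egr1 and Dusp1 had a wide spread for their level in both genotypes. In wild type, Egr1 spanned 2.41-fold between its highest and lowest library, Fosb 2.06-fold, Jun 1.84-fold, Fos 1.83-fold and Dusp1 1.70-fold. Set beside all tested genes of like level (mean CPM within 0.5 log2 units), a wider wild-type range was found for 0.355% of the genes like Jun, 0.719% of those like Egr1 and 0.850% of those like Dusp1. The shares were 1.21% for Fos and 2.26% for Fosb. In the mutant, Fosb spanned 3.02-fold, Egr1 1.72-fold, Dusp1 1.46-fold, Fos 1.45-fold and Jun 1.39-fold, and a wider range was found for 1.01%, 3.47%, 3.36%, 6.98% and 3.23% of genes of like level. Atf3 is left out of this comparison, because its wild-type range rests on the prior count given to a library with 0 counts (4.74 log2 units with a prior count of 0.5 and 2.90 with 2).

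Junb, Jund, Ier2 and Nr4a1 did not stand out among genes of like level. Ier2 spanned 1.13-fold in wild type and 1.18-fold in the mutant, and 65.8% and 51.6% of genes of like level had a wider range. For Junb these shares were 65.1% and 39.3%, for Jund 16.7% and 63.7%, and for Nr4a1 24.1% and 21.6%. Nr4a1 still spanned 1.62-fold in wild type and 1.77-fold in the mutant, and Jund 1.66-fold and 1.29-fold, as many genes of their low level did. The members thus divide by their range relative to genes of like level, not by the range itself, and the division was made after the values were seen.

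**Figure D4:**
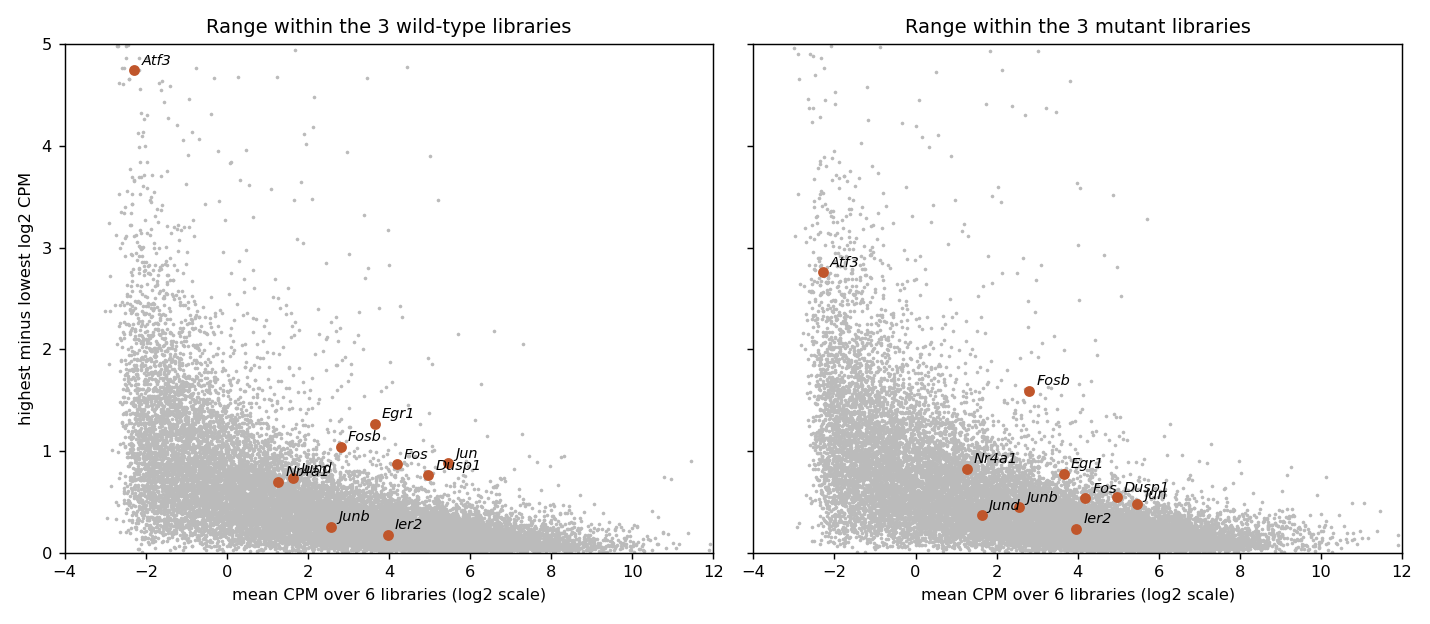
Highest minus lowest log2 CPM among the 3 libraries of a genotype (vertical axis) against the mean CPM over 6 libraries on a log2 scale (horizontal axis), for all tested genes in grey and the 10 genes in orange; genes beyond the axes are not drawn. Jun, Fos, Egr1, Dusp1 and Fosb lie near the upper edge of the cloud in both panels, and Ier2 and Junb lie within it.

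Several marker lists also set wild-type replicate 3 apart from the other wild-type libraries, and others did so little. Its macrophage markers summed to 77.8 CPM, against 74.1 and 66.7 CPM in wild-type replicates 1 and 2. Its mast cell and basophil markers summed to 93.9 CPM, against 95.3 and 98.3 CPM. Its T and natural killer markers summed to 125 CPM, against 94.3 and 99.3 CPM. Its summed neutrophil and monocyte markers were 8314 CPM, against 5822 and 5565 CPM in wild-type replicates 1 and 2 and 6014, 5945 and 4300 CPM in mutant replicates 1 to 3. Its B cell markers summed to 1403 CPM, against 1721 and 2227 CPM, and 2405, 2665 and 2285 CPM in the mutant, lowest in wild-type replicate 3 and highest in mutant replicate 2 as the member sum was. Its erythroid markers were 231 CPM, against 116 and 104 CPM, and 305, 269 and 151 CPM in the mutant, where replicate 2, the library with the highest sum of the 10 members, thus exceeded wild-type replicate 3. The 10 markers of LSK identity (among them Kit, Ly6a, Cd34 and Flt3) summed to 1641 CPM in it, against 2133 and 2045 CPM, and 1663, 1769 and 1880 CPM in the mutant. Mutant replicate 1 was thus close to wild-type replicate 3 in these markers, with a member sum of 126 against 97.9 CPM. It was the lowest mutant library in both sums, whereas mutant replicate 3 was highest in the LSK sum and mutant replicate 2 in the member sum. The part of these marker lists in the low immediate-early levels was not tested. In wild-type replicate 3 the share of nuclear ribosomal RNA was 6.78%, between those of wild-type replicates 1 and 2 (7.08% and 6.45%). Its share of mitochondrial counts, 20.1%, was likewise between theirs (20.4% and 20.0%).

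Within a library the members could be set against each other, a comparison that does not depend on how libraries are scaled. Fos per Jun was 0.564, 0.480 and 0.546 in wild-type replicates 1 to 3 and 0.326, 0.340 and 0.323 in mutant replicates 1 to 3. The ratio was thus nearly constant within each genotype, although the levels of both genes varied, and every mutant value was below every wild-type value. The mean log2 ratio was -0.92 ± 0.12 in wild type and -1.60 ± 0.040 in the mutant (SD, n = 3), a difference of -0.68 (exact two-sided permutation p = 0.1, the smallest possible). This pair was singled out after its values were seen. Of the 45 pairs of members, 9 had ratios that did not overlap between genotypes (20.0%), close to the 17.5% of all pairs of tested genes at a mean of 1 CPM or more, so non-overlap of a ratio is common in these libraries. Jun was in 5 of the 9 pairs, higher in the mutant relative to Fos, Dusp1, Egr1, Ier2 and Junb. Over all 15998 other genes at this level the ratio to Jun did not overlap for 3256 (20.4%), with Jun relatively higher in the mutant for 3224 of them, and the ratio to Fos for 578 (3.61%), so a shift relative to Jun is not particular to these partners. Jun per Egr1 was 2.81, 2.52 and 3.30 in wild type and 4.77, 3.86 and 4.78 in the mutant. Jun per Dusp1 was 1.17, 1.26 and 1.12 in wild type and 1.55, 1.54 and 1.86 in the mutant.

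**Figure D5:**
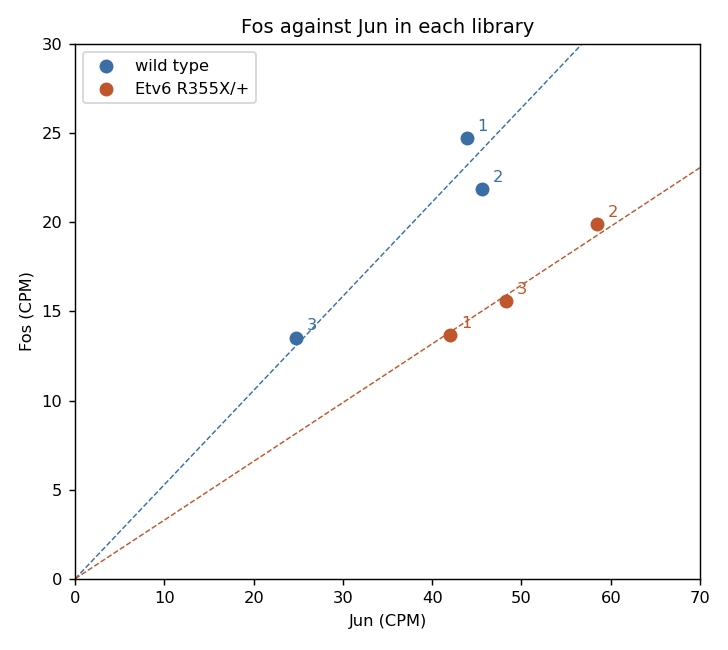
Fos against Jun in CPM for each library (both axes from 0), wild type in blue and Etv6 R355X/+ in orange with the replicate number, and a dashed line through 0 at each genotype's geometric mean ratio. The 3 wild-type libraries lie along the steeper line (0.480 to 0.564 Fos per Jun) and the 3 mutant libraries along the shallower (0.323 to 0.340).

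Beyond the 10 members, 43 other immediate-early genes could be tested, and 0 passed edgeR's test after adjustment, where 6 higher and 3 lower had an unadjusted p under 0.05, against 10.6% of all tested genes (median log2 fold change 0.038). Limma-voom called 0 of the 43, and DESeq2, which called 1.68% of all genes it tested, called 5, Cd69, Dusp5, Irf1, Klf10 and Myc. Cd69, an early activation receptor, measured 28.0, 36.0 and 25.7 CPM across the wild-type libraries and 42.3, 43.1 and 39.5 CPM in the mutant (log2 fold change 0.48, edgeR adjusted p = 0.170). Dusp5, a nuclear phosphatase for ERK, measured 5.77, 6.61 and 5.15 CPM across the wild-type libraries and 10.5, 8.19 and 9.06 CPM in the mutant (log2 fold change 0.66, edgeR adjusted p = 0.163). In both genes every mutant value exceeded every wild-type value. Irf1, an interferon-response factor, had a log2 fold change of 0.32 and Myc, the most abundant gene of the list per kb, -0.38 (edgeR adjusted p = 0.154 and 0.181). Wild-type replicate 3 was the lowest wild-type library for 24 of these 43 genes, against 36.1% of all tested genes. Among them was Zfp36, whose product binds AU-rich elements and speeds mRNA decay, at 75.0, 67.6 and 42.5 CPM across the wild-type libraries and 64.4, 77.3 and 67.5 CPM in the mutant. Zfp36 was named after its values were seen.

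In 3 further lists, of genes known to act with, upstream of or against the members, 0 genes passed edgeR's test. Of 16 AP-1 partners and competitors, 0 passed after adjustment in edgeR, DESeq2 or limma-voom and 1 had an unadjusted edgeR p under 0.05. Cebpg and Maf had log2 fold changes of 0.13 and 0.27, and the most abundant, the stress factor Atf4, stood at 97.9 ± 4.2 and 95.8 ± 4.9 CPM (SD, n = 3; here and in the pairs that follow, wild type comes first). Of 32 genes that carry signals to these promoters (SRF and its partners, CREB and its relatives, and MAP kinases), 24 were below 0 and 8 above. Over all 20646 tested genes, 10205 were below 0 and 10441 above. The median log2 fold change of the 32 was small, -0.024, and 0 of them passed after adjustment in edgeR, DESeq2 or limma-voom. Against 10.6% of all tested genes, 2 of the 32 had an unadjusted edgeR p under 0.05. Those were Rps6ka5, which encodes the histone H3 kinase MSK1 (63.9 ± 5.4 and 73.2 ± 1.0 CPM), and Map2k4, an activator of JNK, the kinase of Jun (49.1 ± 0.39 and 43.7 ± 1.5 CPM). Rps6ka3, a kinase downstream of ERK, had a log2 fold change of -0.21, and Atf1, the most abundant of the list per kb, measured 145 ± 3.3 and 144 ± 15 CPM. Of 20 phosphatases and other brakes on the response, 0 passed after adjustment in edgeR, 0 in limma-voom and 1 in DESeq2, and 2 had an unadjusted edgeR p under 0.05, Dusp5 and Dusp7 (log2 fold changes 0.66 and 0.34), both of which dephosphorylate ERK. Dusp2 had a log2 fold change of 0.17, and the decay factor gene Zfp36l2, the most abundant of these per kb, measured 430 ± 37 and 385 ± 46 CPM.

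Heat shock genes are the other group known to rise in handled or stressed cells. Of 13 tested, 1 passed edgeR's test, against 0.266% of all tested genes. It was Dnajb1, a cochaperone of Hsp70, which rose from 69.4 ± 1.7 to 90.3 ± 5.5 CPM (SD, n = 3, log2 fold change 0.38, edgeR adjusted p = 0.0441). At an unadjusted edgeR p under 0.05 stood 3 higher and 1 lower, against 10.6% of all tested genes. DESeq2 called Dnajb1 and Hspa1a, and limma-voom called 0 of the 13, against 1.68% and 0.199% of all genes they tested. The Dnajb1 call ended whichever library was left out (edgeR adjusted p from 0.0900 to 0.193, log2 fold change from 0.34 to 0.43), with the replicate block (adjusted p = 0.193) and with library size alone (adjusted p = 0.0892). Leaving out a library also leaves fewer libraries to test. In edgeR the call was kept with RLE factors (adjusted p = 0.0462) and with a minimum of 1 CPM in 3 libraries (0.0439). It was also kept without mitochondrial and ribosomal RNA genes (0.0452) and without a low-count filter (0.000541). Hspa1a, an inducible Hsp70 gene, measured 1.44, 3.07 and 1.81 CPM across the wild-type libraries and 4.45, 20.8 and 9.36 CPM in the mutant (edgeR adjusted p = 0.0926), with the highest value in mutant replicate 2. Its near-identical copy Hspa1b measured 1.75, 4.01 and 2.16 CPM across the wild-type libraries and 5.32, 20.9 and 8.87 CPM in the mutant (edgeR adjusted p = 0.122), and reads of these copies cannot be placed with certainty. The most abundant of the list per kb, Hsp90ab1, measured 1805 ± 31 and 1817 ± 92 CPM. Wild-type replicate 3, the library lowest in the immediate-early genes, was the lowest wild-type library for 3 of the 13 heat shock genes, against 36.1% of all tested genes.

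The genes closest in pattern to the members were sought by the root-mean-square difference between a gene's centred log2 CPM and the mean profile of the 10 members over the 6 libraries, among 485 genes at a mean of 5 CPM or more with a comparable spread. Rad9b, a checkpoint clamp gene (0.083 log2 units), Tbxa2r, the thromboxane receptor gene (0.15), and Pcdhgb4 (0.17) were nearest, followed by Rgs1, Zfp287 and Sbf2 (0.19 each). Pcdhgb4 shares exons with other genes of its protocadherin cluster, so its count is uncertain. Rgs1, a brake on G protein signalling, is also on the list of other immediate-early genes described above. It measured 57.9, 56.6 and 35.6 CPM across the wild-type libraries and 57.1, 74.2 and 60.0 CPM in the mutant. Like Jun, Rgs1 was lowest in wild-type replicate 3 and highest in mutant replicate 2. Dusp1 and Jun were the members nearest the mean profile, at 0.19 and 0.21 log2 units, and Atf3, whose counts of 0 to 44 weigh on that mean, was farthest at 1.56. The mean profile was lowest in wild-type replicate 3 with Atf3 (-0.78) and without it (-0.44). In mutant replicate 1 the profile stood at 0.16 with Atf3 and at -0.048 without it. The genes were ranked with Atf3 in the profile, and the ranking was not repeated without it. Which genes are nearest may therefore depend on the few counts of Atf3.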

How the data were processed

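The authors deposited unscaled RSEM expected counts for each gene and library. The build was mm10 and the tools Trim Galore 0.60, STAR 2.7 and RSEM 1.31, per the submitters' processing notes; per the labels' protocols, total RNA was amplified by a single-primer isothermal method. The annotation release is not given in the sources used here, and counting was unstranded per the file's name, so genes overlapping on opposite strands can share reads. Spike-in rows (92, all at 0) were left out.

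Expected counts were rounded, filtered with filterByExpr and scaled by TMM. The genotype test was the two-sided quasi-likelihood test of edgeR 4.0.16 in R 4.3.3, with no covariate, adjusted by Benjamini-Hochberg over 20646 genes at 0.05. Intervals use the fit's degrees of freedom. Log2 CPM used a prior count of 0.5. The scripts were tested on simulated data. GENCODE M21 gave positions, exons and UTRs (55394 of 55573 identifiers matched without version), and RefSeq gave promoters. The members and lists were chosen with earlier results of these data known. Named context genes are the 3 of smallest p and the most abundant of each list; a gene this rule names among the AP-1 partners is not reported here. Replicates differed by more than sampling noise (chi-square per gene 11.6 to 48.9). Alternatives were DESeq2 1.42.0, limma-voom 3.58.1, RLE factors, library size alone, other filters, a replicate block, leaving out each library, and leaving out mitochondrial and ribosomal RNA genes.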

Additional observations from a re-analysis of the deposited data

How the results depend on the processing

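The count of members past the threshold was 0 under every alternative run. The count over all genes, 55, was 328 with DESeq2, 527 without a low-count filter and 32 with the replicate block, and ran from 16 to 67 when a library was left out; the cause was not tested. The members' median log2 fold change ran from -0.19 (without wild-type replicate 3) to 0.12 (without wild-type replicate 1). With the replicate block 0 members passed and their median was -0.056. The same-numbered libraries do not pair: correlations of their deviations were -0.073, -0.14 and -0.26, and no wild-type library correlated best with its own number.

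Fos, Egr1, Ier2, Jun, Nr4a1 and Atf3 kept their sign under the alternatives run. Atf3 had no value under a minimum of 1 CPM in 3 libraries, and no adjusted p in DESeq2. The sign of Dusp1 changed in 4 of 14 settings, of Fosb and Junb in 2 and of Jund in 1, all of them leaving out a library. Without a low-count filter, 3 members had an unadjusted edgeR p under 0.05, and the adjusted p of Jun was 0.0827, the lowest of its alternatives (highest 0.786). The median wild-type range of the members was 0.82 log2 units, and 0.81 with a prior count of 2 and 0.82 with library size alone; that of Atf3 alone was 4.74, and 2.90 with a prior count of 2. The alternatives for Dnajb1 were added after its call was seen. Counts of 0 to 44 limit what can be said of Atf3.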
